A study of Mus musculus with 6 samples.

Results

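Monocytes were followed across 6 single-cell libraries labelled as mouse spleen, as barcodes chosen by their measured counts of the monocyte genes Lyz2, Csf1r, Ifitm3 and Cebpb and of genes of neighbouring cell types. Barcodes were kept from 200 genes upward and up to a mitochondrial share of 20%. A member had a sum of at least 3 counts of the 4 marker genes, at most 1 count of C1qa, C1qb and C1qc (macrophages), no count of Cd3d, Cd3e and Cd3g (T cells), at most 1 of Cd79a, Cd79b and Ms4a1 (B cells), none of Siglech (plasmacytoid dendritic cells), none of Xcr1, Clec9a, Cd209a, Zbtb46 and Flt3 (dendritic cells), and fewer than 10 of S100a8 and S100a9 (neutrophils). This rule found 249 members among 15578 kept barcodes (1.60%). Within them, 111 barcodes with a count of Ly6c2 or Ccr2 are called positive and 138 without either are called negative. Because measured counts chose both the members and the split, the levels of these genes between members and other barcodes, or between positive and negative members, are a description with no test. The only test of such levels sets Ly6c2 and Ccr2 each against classes that the other defined. Ly6c2 and Ccr2 also stayed among the genes tested between protocols, where neither passed with all members.

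Monocytes are phagocytes that arise in the bone marrow, circulate in blood and are also held in the spleen. Their survival depends on the receptor encoded by Csf1r. In mice, classical monocytes carry the surface protein Ly6C, encoded in part by Ly6c2, and leave the marrow and enter inflamed tissue through the chemokine receptor Ccr2. Nonclassical monocytes carry little Ly6C, patrol the vessel wall and depend on the transcription factor Nr4a1; many arise from classical monocytes.

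The labels of all 6 libraries give spleen of female mice, 10 weeks of age, and the strain in the series text is C57BL/6. They were Nanopore long-read libraries made with the 10x Genomics 3′ kit version 3.1, with the 5′ kit version 2 (standard 5′), or with that 5′ kit, 1 µl of 10 mM dNTP added at both reverse transcription and cDNA amplification, and longer extensions (modified 5′). Extension at reverse transcription then lasted 2 h and not 45 min, and at cDNA amplification 3 min and not 1 min. Each protocol had 2 libraries, replicates 1 and 2. Replicate 2 libraries carry the spleen label, but their extraction protocol is one for pancreatic islets with insulin cDNA removed, so what divides the replicate numbers cannot be told apart. Of 12 pancreas genes listed, 3 had counts in the members: Cela1 (an elastase) 6, Ins2 (insulin) 1 and Ppy 1. The list took 0% to 0.0122% of member counts by library, highest in modified 5′ replicate 2, against 0.000159% to 0.00398% in the other kept barcodes. Nothing in the labels says that replicates came from separate animals, so p-values measure only the spread between these libraries, which may be technical.

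Depth ran from 723341 to 2627253 counts per library. The median member held from 524 counts in standard 5′ replicate 1 to 1344 in 3′ replicate 1, against 332 to 606 in all kept barcodes. In all, 211542 counts fell in members. No barcode sequence was shared between members of different libraries, and 3 members shared one with another kept barcode of another library.

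Every library held members. In 3′ replicates 1 and 2 they were 25 and 74, in standard 5′ 16 and 56, and in modified 5′ 20 and 58. As a share of kept barcodes, this was 1.07% (95% exact binomial interval 0.695% to 1.58%) and 1.83% (1.44% to 2.29%) for 3′, 1.86% (1.07% to 3.00%) and 1.75% (1.32% to 2.26%) for standard 5′, and 0.989% (0.605% to 1.52%) and 1.86% (1.42% to 2.40%) for modified 5′. These intervals cover counting error only. Across kept barcodes, 339 reached the marker sum and 90 of them were left out by the other limits, most by a dendritic cell gene (46) or a B cell gene (21).

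Marker counts were not evenly high. The sum of the 4 markers ran from 3 to 113, with a median of 14. At the threshold, 25 members had a sum of 3, and 72.0% of them had a count of Tyrobp, Fcer1g, Cst3 or Ctss, myeloid genes that the rule did not use. Just outside it, 41 barcodes had a sum of 2, and 65.9% of them had such a count.

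Lyz2, which encodes lysozyme, carried most of the marker counts. In 3′ it was 12852 and 33332 CPM (counts scaled to 1000000 per library) in the summed members, in standard 5′ 29845 and 19549, and in modified 5′ 10936 and 23880, against 106 ± 64.1 in the other kept barcodes (mean ± SD, n = 6 libraries). Ifitm3, an antiviral membrane protein, ran from 3051 to 7960 CPM and was found in 230 of 249 members. Csf1r was found in 91 members and Cebpb, a transcription factor of the myeloid lineage, in 25.

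The monocyte label held for most members and not for all. The adaptor genes Tyrobp and Fcer1g and the protease inhibitor gene Cst3, which the rule did not use, had counts in 206, 214 and 211 of 249 members. For comparison, 8424 barcodes lay below the marker sum and had at least 2 counts of the B cell genes of the rule. In these, Fcer1g was found in 0.973% (median 479 counts per barcode, against 726 in members) and Tyrobp in 4.46%. Cst3 was found in 17.6% of them and Ctss in 29.9%. A count of any of these 4 genes, as given above near the marker threshold, is thus a weak sign of a myeloid barcode. Described by ratio alone, with 50 CPM added to both levels, the genes outside the rule that stood highest over the other kept barcodes were Ifitm2 (1194 ± 425 against 26.4 ± 10.6 CPM), Lgals3, Alox5ap (leukotriene synthesis), Fcer1g and Ccl6 (a chemokine).

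Haemoglobin stood against the label in 14 members. In these, haemoglobin genes made up 1.87% to 73.1% of the barcode's counts, while no other member exceeded 0.431%. They lay in 3′ replicate 1 (10), standard 5′ replicate 1 (2) and modified 5′ replicate 1 (2), and 13 of them were negative. Car2 (a carbonic anhydrase) and Blvrb had counts in all 14, Alas2 (haem synthesis) in 13, Slc4a1 in 11 and Mki67, a marker of dividing cells, in 11. Csf1r, Cebpb, Cst3 and Ctss had a count in 0 of 14. By counting error alone, 0 of 14 allows up to 21.4% of such barcodes to hold a count, which limits detection and not expression. Of the 14, 12 entered through Ifitm3 alone. Of the other 235 members, 1 lacked all of Tyrobp, Fcer1g, Cst3 and Ctss, against 13 of these 14. These 14 barcodes go against the monocyte label, so results are given with and without them, an alternative added after the data were seen.

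**Figure D1:**
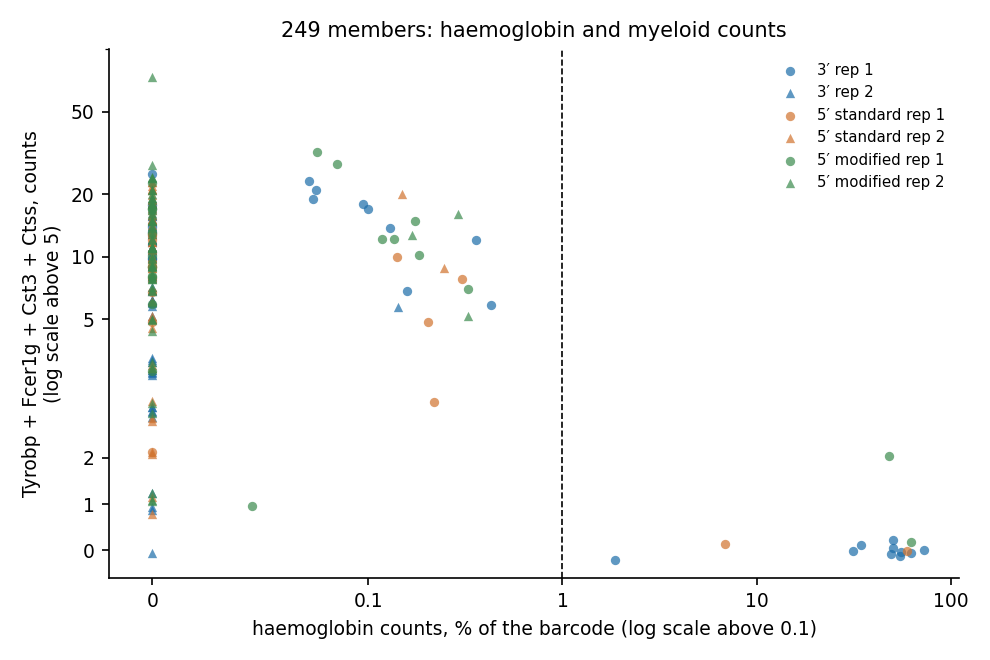
Haemoglobin share (x axis, % of the barcode's counts, log scale above 0.1) against the summed counts of Tyrobp, Fcer1g, Cst3 and Ctss (y axis, log scale above 5, points spread slightly at random within each count) for all 249 members, coloured by protocol and shaped by replicate. The 14 members right of the dashed line at 1% lie in replicate 1 libraries, and 13 of them have none of the 4 myeloid genes.

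A further 12 members entered through Ifitm3 alone without high haemoglobin. Of these, 9 had 3 or more counts of H2-Aa, an MHC class II chain, with up to 36 counts of H2-Aa and up to 72 of its partner Cd74 per barcode. The other 3 lay in standard 5′ replicate 2, where 2 held counts of Car1, a carbonic anhydrase. Leaving out these 12 as well leaves a stricter set. Over all members, 30 (11 positive and 19 negative) had 2% or more of their counts in MHC class II genes, up to 14%.

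Marker lists of other cell types stood at different levels relative to the other kept barcodes, and genes of the rule's own limits are low in members by choice. The 12 T cell genes took at most 0.00791% of counts, against 0.308% to 0.528% in the other kept barcodes, with Cd3d, Cd3e and Cd3g at 0 by the rule and Trac at 0. The 14 B cell genes took 0.0196% to 0.0415%, against 1.62% to 3.95% in the other kept barcodes, with Pax5 and Ebf1 at 0. The 12 neutrophil genes took at most 0.0490%, against 0.00338% to 0.0682%, with Camp, Ltf and Ngp at 0. The 13 macrophage genes were higher in members in every library, at 0.0220% to 0.0740% against 0.00439% to 0.0229%, with Mertk at 0. The 12 dendritic cell genes took 0.0435% to 0.167% against 0.0628% to 0.159%, and were above the other barcodes in 3′ replicate 1 (0.167% against 0.0815%). Without haemoglobin-rich members the dendritic list took 0.0212% in that library. All 58 counts of Cd24a, a gene of that list, in its members lay in haemoglobin-rich barcodes. The 8 erythroid genes reached 26% in 3′ replicate 1, and at most 0.0849% in any library once the haemoglobin-rich members were left out.

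Ly6c2 and Ccr2 divided the members unevenly. Both genes had counts in 38 members, Ly6c2 alone in 59 and Ccr2 alone in 14, and 30 positive members rested on a single count. In the B cell gene barcodes, Ly6c2 was found in 1.50% and Ccr2 in 0.0594%, against 39.0% and 20.9% of members. The positive share was 32.0% (exact binomial interval 14.9% to 53.5%) and 54.1% (42.1% to 65.7%) in 3′, 56.3% (29.9% to 80.2%) and 50.0% (36.3% to 63.7%) in standard 5′, and 20% (5.73% to 43.7%) and 37.9% (25.5% to 51.6%) in modified 5′. Modified 5′ replicate 1 was the lowest, with 4 positive members. Without haemoglobin-rich members 3′ replicate 1 stood at 53.3%, close to 3′ replicate 2.

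**Figure D2:**
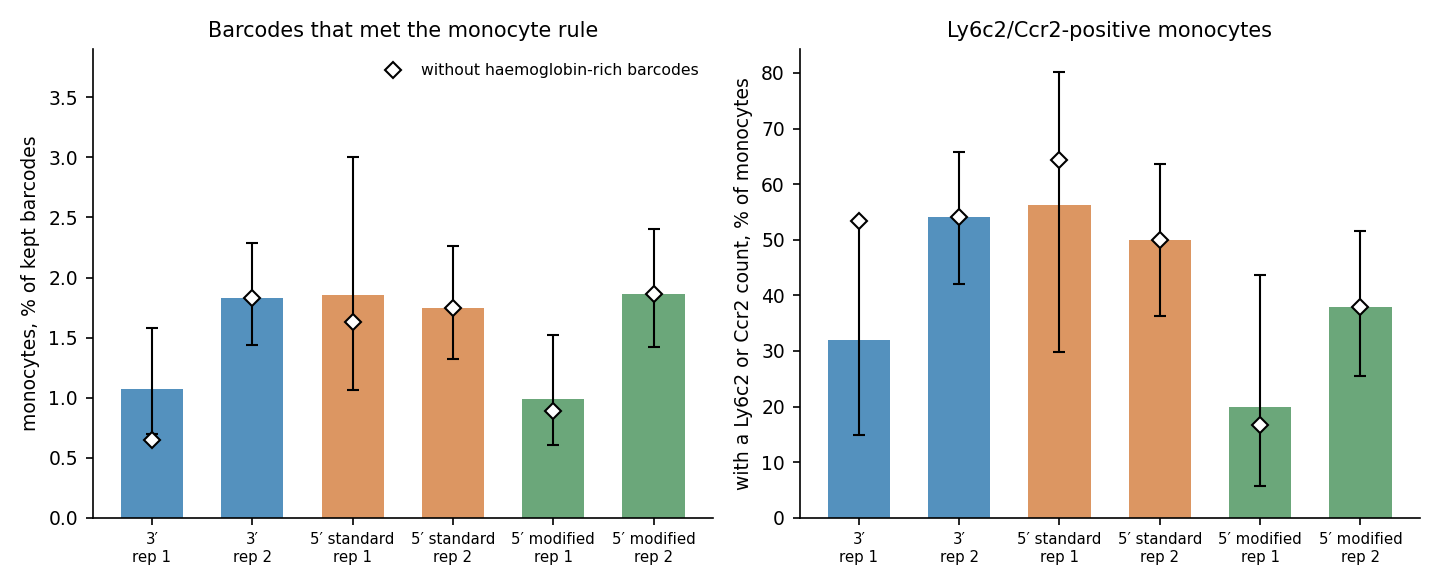
Left, members as % of kept barcodes, and right, members with a Ly6c2 or Ccr2 count as % of members, for each of the 6 libraries; bars are the shares, error bars the exact 95% binomial intervals and diamonds the shares without haemoglobin-rich members. The diamond of 3′ replicate 1 moves most, from 32.0% to 53.3% positive, and the modified 5′ libraries are lower than both standard 5′ libraries on the right.

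The protocols did not differ in these shares beyond what 2 libraries each can show. The monocyte share was 1.45% ± 0.535 for 3′, 1.80% ± 0.0797 for standard 5′ and 1.43% ± 0.619 for modified 5′ (mean ± SD, n = 2), with two-sided exact permutation p of 0.667 (standard minus 3′), 1 and 1, where the smallest possible is 0.333. From 300 genes upward the standard 5′ share was 4.06% ± 2.77, with replicate 1 at 6.02% of 216 kept barcodes. Standard minus 3′ then became 2.40 points, from 0.351, and modified minus standard -2.46, from -0.375. The positive share was 43.0% ± 15.6, 53.1% ± 4.42 and 29.0% ± 12.7. Modified minus standard 5′ was -24.2 percentage points (-36.3 within replicate 1 and -12.1 within replicate 2; exact permutation p = 0.333, both libraries lower than both). With every barcode thinned to 300 counts and the rule applied again, which also changes the members, it was -33.4 points, with the same p. Modified 5′ minus 3′ was -14.1 points (p = 0.667 by exact permutation), and -26.4 without haemoglobin-rich members (0.333). Over the 3 comparisons of each share, no p fell below 0.333 before adjustment, so none can pass. Between replicate numbers, the monocyte share was 1.31% ± 0.480 in replicate 1 and 1.81% ± 0.0610 in replicate 2 (n = 3 libraries, exact permutation p = 0.3, smallest possible 0.1). Without haemoglobin-rich members replicate 1 was 1.05% ± 0.511, below all of replicate 2 (exact permutation p = 0.1).

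Positive and negative members differed in a group of classical monocyte genes. Counts were summed per library and class and tested in the 5 libraries with at least 5 members of each class, which left out modified 5′ replicate 1. Of 233 genes tested, 19 passed edgeR's quasi-likelihood test with Benjamini-Hochberg adjustment at 0.05 (8.15%), 15 of them higher in positive members (6.44%) and 4 lower (1.72%). The median log2 difference over all tested genes was 0.02. Genes of the rule were not tested. The filter on low counts could be met by a single class, so a gene high in positive members could enter through them alone.

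Vim, which encodes the intermediate filament vimentin, was among the most clearly separated. In positive members it stood at 3731, 3656, 6881, 4089 and 3018 CPM (3′ replicates 1 and 2, standard 5′ replicates 1 and 2, modified 5′ replicate 2), and in negative members at 143, 1013, 776, 1054 and 1366 CPM. No negative value reached a positive one, and the log2 difference was 1.87 ± 0.32 (SE; adjusted p = 1.5e-05). Crip1, a small LIM domain protein, stood at 3073, 2474, 1911, 3279 and 3595 CPM in positive members and 71.6, 426, 194, 851 and 2186 in negative members, a log2 difference of 1.85 ± 0.34 (adjusted p = 5.9e-05). Here the groups overlapped: negative members of modified 5′ replicate 2 lay above positive members of standard 5′ replicate 1. Within each of the 5 libraries the positive members were higher for both genes. The negative members of standard 5′ replicate 1 were 7, with a median of 412 counts. Values such as 194 CPM in them, here and for the genes below, rest on very few counts.

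The S100 and annexin list, mostly calcium-binding proteins, held 4 of these genes. S100a6 stood at 1756, 1512, 2102, 2199 and 2042 CPM in positive and 107, 373, 582, 284 and 1366 CPM in negative members (log2 difference 1.66 ± 0.35, adjusted p = 0.00078). Positive members were above negative ones without overlap. S100a10, the partner of annexin A2, stood at 1317, 962, 1529, 656 and 621 CPM in positive members and at 0, 160, 194, 203 and 273 in negative members (2.06 ± 0.46, adjusted p = 0.0011), also without overlap. S100a4 (1.13 ± 0.34, adjusted p = 0.019) and Lgals3, a galectin (1.35 ± 0.33, adjusted p = 0.0029) were also higher. Of 7 genes of this list tested, 4 were higher and none lower, and the median log2 difference of the 7 was 1.13. S100a10 entered the test through positive members alone, so this count describes the tested genes and is no separate support. Anxa2 itself did not pass, at 0.78 ± 0.39 (adjusted p = 0.22).

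Among 20 classical monocyte genes, 8 were tested, 7 were higher in positive members and none was lower, with a median log2 difference of 1.28. Since genes such as Ms4a4c entered the test through positive members alone, this count describes the tested genes and is no separate support. Besides S100a4, S100a6 and Lgals3 the genes that passed were Ms4a4c, Plac8, Mgst1 and Ifi27l2a. Ms4a4c, a tetraspan membrane protein, stood at 1317, 962, 1147, 617 and 621 CPM in positive members and 71.6, 267, 194, 162 and 219 CPM in negative members (1.81 ± 0.43, adjusted p = 0.0029), without overlap. Plac8 stood at 5926, 5635, 3823, 5092 and 7679 CPM against 286, 2719, 1552, 1703 and 5082 (1.20 ± 0.31, adjusted p = 0.0050), where negative members of modified 5′ replicate 2 lay above positive members of standard 5′ replicate 1. Mgst1, a glutathione transferase, differed by 1.43 ± 0.44 (adjusted p = 0.025) and Ifi27l2a, an interferon-induced gene, by 1.11 ± 0.32 (adjusted p = 0.015).

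The other classical genes were too sparse for the test and are described by the members that held a count. Fn1 (fibronectin) had one in 48 of 111 positive and 8 of 138 negative members, Hp (haptoglobin) in 52 and 10, F13a1 (a coagulation factor subunit) in 38 and 8 and Chil3 in 34 and 13. Vcan (versican) was found in 4 positive and 0 of 138 negative members, which by counting error allows up to 2.17% of barcodes with a count. Positive members were deeper, with medians of 937 against 512 counts in 3′ replicate 2 and 952 against 482 in standard 5′ replicate 2, and in 3 of the other 4 libraries. The part of depth in these shares was not tested.

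Nonclassical genes pointed the other way, though few could be tested. Of 25 listed genes 2 were tested, and neither passed: Gngt2, a G protein subunit, at -0.99 ± 0.34 (adjusted p = 0.059) and Itgal, an integrin chain, at -1.01 ± 0.39 (adjusted p = 0.088). By members with a count, Treml4 was found in 5 of 111 positive and 33 of 138 negative members, Cd300e in 0 and 16, Eno3 in 2 and 24, Fabp4 in 2 and 19, Pglyrp1 in 10 and 41, Spn (CD43) in 12 and 34 and Ear2 in 7 and 26. Ace was nearer to even at 20 and 34, as were Nr4a1 at 23 and 32 and the fractalkine receptor Cx3cr1 at 14 and 19. For Cd300e, 0 of 111 allows up to 2.70% of positive barcodes with a count, by counting error at this depth.

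Per barcode, over all libraries, the medians of the lists stood on opposite sides of the split. The classical list took a median of 2.20% of counts in positive and 0.704% in negative members, and the nonclassical list 0.262% and 1.12%. More classical than nonclassical counts were found in 101 of 111 positive and 41 of 138 negative members. Across all 249 members the shares had Pearson r = -0.36 and Spearman rho = -0.29, and without haemoglobin-rich members -0.47 and -0.49 (n = 235); shares of the same total are not independent, members of a library share its depth, and no p is given. Medians of negative members without haemoglobin-rich barcodes were 0.774% and 1.21%. The exception was 3′ replicate 1, where the nonclassical median was higher in positive (0.226%) than in negative members (0.0579%), and lower only once haemoglobin-rich barcodes were left out.

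**Figure D3:**
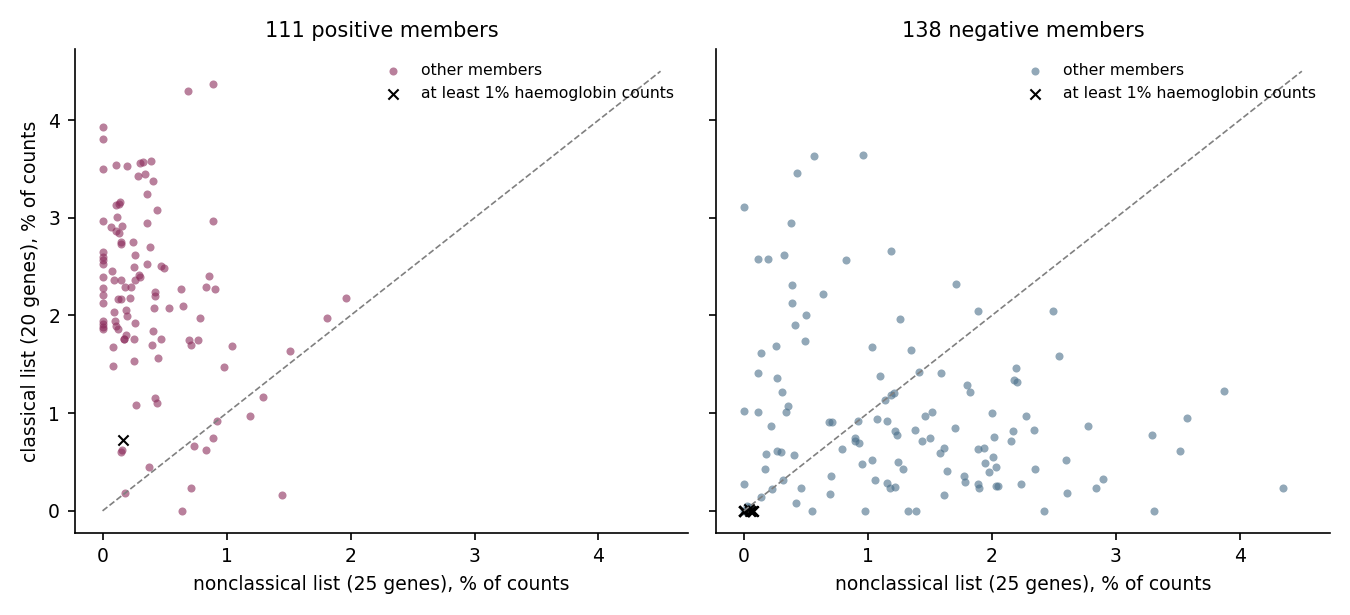
Share of each member's counts in the 25 nonclassical (x axis, %) and 20 classical genes (y axis, %), for positive (left) and negative members (right); the dashed line marks equal shares and crosses the haemoglobin-rich members. Of positive members 101 of 111 lie above the line, of negative members 41 of 138, and the crosses on the right lie near 0 on both axes.

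The 4 other genes that passed were lower in positive members. Ptma, a nuclear chromatin-binding protein, stood at 549, 495, 382, 540 and 533 CPM in positive and 895, 1013, 1358, 1419 and 820 CPM in negative members, with no overlap (-1.45 ± 0.35, adjusted p = 0.0029). The mitochondrial gene mt-Cytb differed by -0.98 ± 0.31 (adjusted p = 0.025), the only gene to pass among 5 mitochondrial genes tested. Hsp90aa1, a chaperone, differed by -1.54 ± 0.41 (adjusted p = 0.0072) and was lower in 4 of 5 libraries, and the peroxidase Gpx1 by -1.09 ± 0.32 (adjusted p = 0.015), also lower in 4 of 5. Higher genes not yet named were Ms4a6b (1.49), Ahnak (1.40), Tagln2 (1.36), the actin-binding peptide gene Tmsb10 (1.12) and the peroxiredoxin Prdx5 (1.07).

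With all members, the other lists of monocyte function held few genes that passed. Among MHC class II genes 4 were tested and none passed, with a median log2 difference of -0.45. Other lists with tested genes and none passing were inflammatory mediators (1 tested), nuclear noncoding RNAs (3), Fc receptors and their adaptors (5 tested), integrins (6), NADPH oxidase (4), MHC class I (5) and myeloid transcription factors (2). The lysosome list had 8 tested genes and 1 that passed, Lgals3, and the actin list 13 and 1, Tmsb10. Mki67 had a count in 0 of 111 positive members, pooled over libraries, which by counting error alone allows up to 2.70% of barcodes with a count. It had a count in 16 of 138 negative members, and in 5 of 125 without haemoglobin-rich barcodes.

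The haemoglobin-rich members, almost all negative, bear on these calls. Without them 10 of 232 genes passed (4.31%), 7 higher (3.02%) and 3 lower (1.29%). Of the earlier 19, 8 passed and all 19 had the same sign. The 8 were Vim (1.59), Crip1 (1.65), S100a10 (1.82), S100a6 (1.43), Ms4a4c (1.55), Lgals3 (1.14), Plac8 (0.92) and Ptma (-1.26). In the fit without them 2 further genes passed, both lower in positive members: Gngt2 (-1.22 ± 0.30, adjusted p = 0.024) and Cd300c2, a receptor of the CD300 family (-1.88 ± 0.42, adjusted p = 0.020). In the stricter set, without the Ifitm3-only members too, 19 of 174 genes passed (10.9%), 9 higher (5.17%) and 10 lower (5.75%), and 9 of the 19 were among those named first. There Gngt2 was lower by -1.39 ± 0.30 (adjusted p = 0.0095), Itgal by -1.28 ± 0.37 (adjusted p = 0.034) and Hp higher by 1.47 ± 0.45 (adjusted p = 0.040). The MHC class I genes B2m (-0.61 ± 0.19, adjusted p = 0.045) and H2-K1 (-0.70 ± 0.20, adjusted p = 0.034) were lower in positive members in that set. The other lower genes there were Ptma (-1.05), the lysosome genes Ctsb (-0.99) and Laptm5 (-0.83), the mitochondrial gene mt-Nd2 (-1.03), and the noncoding RNAs Malat1 (-0.68) and Gm42418 (-0.69). The part of depth in these differences was not tested.

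**Figure D4:**
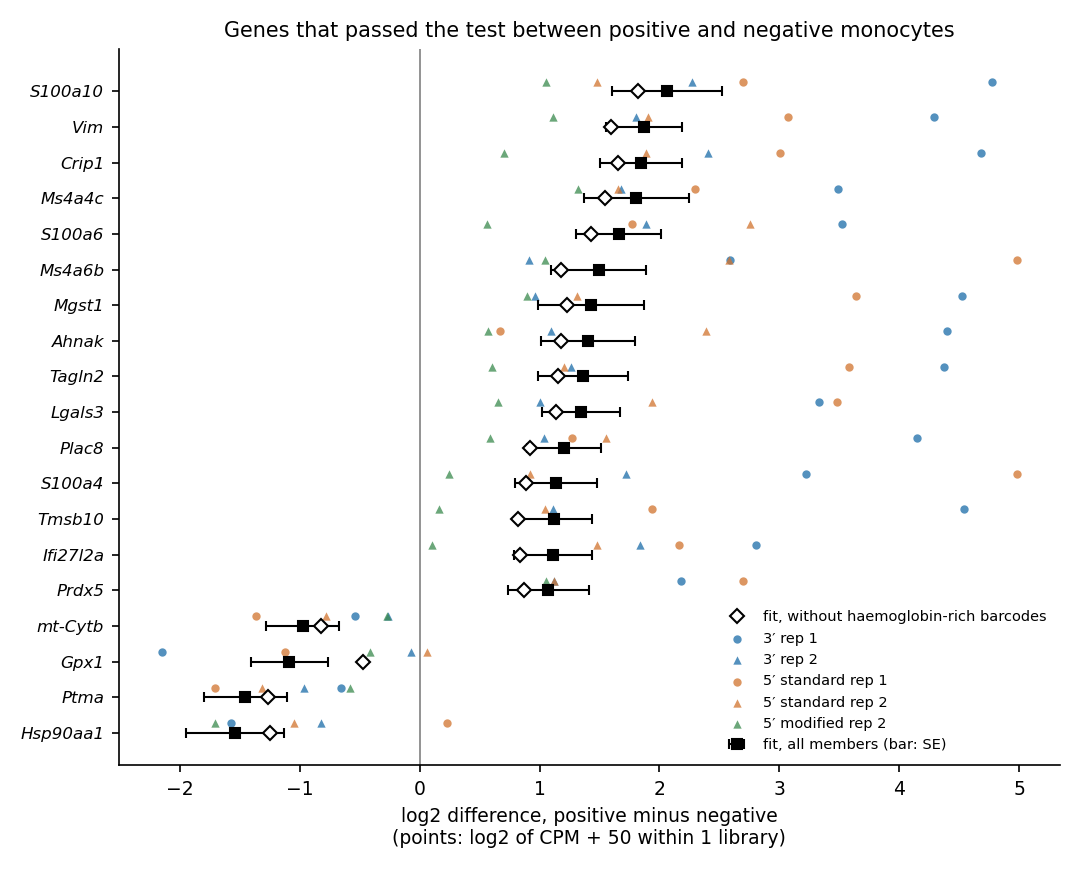
Log2 differences between positive and negative members for the 19 genes that passed; squares are fitted values with their SE, diamonds the fit without haemoglobin-rich members, and coloured points the difference within each library (log2 of CPM + 50). All 15 higher genes lie right of 0 in all 5 libraries, with the widest differences mostly in 3′ replicate 1, and the diamonds lie nearer to 0 for each gene.

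The count of genes moved with depth and with a single library. With every barcode thinned to 300 counts and the rule and split applied again, 4 of 87 genes passed, of which S100a6 was among the 19 (1.37). Vim fell short there at 0.67 ± 0.25 (adjusted p = 0.11) and Crip1 at 0.85 ± 0.34 (adjusted p = 0.14). The other 3 that passed, lower in positive members, were Cst3 (-0.70), Cd74 (-0.70) and H2-Aa (-1.15). Without 3′ replicate 2, which held 40 of the 111 positive members, 2 genes passed, 1 of them among the 19. Ly6c2 alone as the split gave 31 of 242 genes tested and Ccr2 alone 0 of 195.

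Ly6c2 and Ccr2 were also set against each other, each on classes that it did not define. In members with a Ccr2 count Ly6c2 stood at 2146, 7126, 4077 and 5957 CPM (3′ replicate 2, standard 5′ replicates 1 and 2, modified 5′ replicate 2), and in members without at 1460, 3562, 1154 and 2004 CPM. It was higher in all 4 libraries that held enough members, by a log2 difference of 1.13 ± 0.25 (edgeR adjusted p = 0.045, 196 genes tested). The call was lost without haemoglobin-rich members (1.07, adjusted p = 0.095) and when thinned (0.53, adjusted p = 0.76). It was also lost without standard 5′ replicate 1 (1.24, adjusted p = 0.18), standard 5′ replicate 2 (0.88, 0.46) or modified 5′ replicate 2 (0.95, 0.22). In the reverse comparison Ccr2 had too few counts to be tested among the filtered genes; with no filter it differed by 1.27 ± 0.48 between members with and without Ly6c2 (edgeR adjusted p = 0.62, higher in 5 of 5 libraries).

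Some of these genes have close relatives. Of the 31-base words in Ly6c2 transcripts, 21.4% also occur in Ly6c1, and of those of Lyz2, 32.8% in Lyz1, of Ms4a4c 13% in Ms4a4b and of Ifitm3 6.02% in Ifitm2. The sources used here do not say how reads were assigned among such copies, and misassignment was not tested, so the levels of these genes are uncertain.

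The start region of Ly6c2, the gene that set most of the split, is shown because it holds a motif of the kind bound by PU.1, the myeloid factor encoded by Spi1. The 30 bases at chr15:75112061-75112090 (GRCm38, minus strand, from the RefSeq promoter table) lie outside every gene of the GENCODE annotation. The motif, in capitals, begins 108 or 142 bases upstream of the 2 RefSeq starts.
Ly6c2 upstream: atgttggccctGAGGAAGTaagaaccaaaa
GAGGAAGT, searched on both strands of the 250 bases before each start, was found in 2.44% of 32851 promoters. The 21 genes asked for were the split genes and the genes that passed between positive and negative members. The marker genes were not among them. Of the 21, 17 were in the table, and Ly6c2 alone had a match, with a further copy in its own annotated exon. TTGCNNAA, a C/EBP-type motif searched likewise, was found in 9.56% of promoters and in Mgst1 and Plac8 among the 17. Spi1 itself had counts in 58 of 111 positive and 55 of 138 negative members. A match describes the letters only and shows no binding.

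With all members, a single gene passed between capture protocols. Over the summed members of all 6 libraries, 790 genes were tested, and 1 passed for standard 5′ minus 3′ (0.127%) and 1 for modified 5′ minus 3′ (0.127%). In both it was Gm26917, a noncoding RNA (lincRNA) at chr17:39843013-39846341 in GRCm38. It stood at 1377 and 1451 CPM in 3′, 96.3 and 59.3 in standard 5′ and 114 and 73.5 in modified 5′. The log2 differences were -4.84 ± 0.59 (edgeR adjusted p = 0.037) and -4.48 ± 0.55 (adjusted p = 0.041), and the comparisons share the 3′ libraries. No gene passed for modified minus standard 5′, where 14 had an unadjusted p under 0.05 and DESeq2 also called 0. The smallest p there belonged to AY036118, another noncoding RNA (2.12 ± 0.53), followed by Fermt3 (-2.29), Gngt2 (1.27), Eif3i (-2.01) and Car1, all at an adjusted p of 1.00.

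Without haemoglobin-rich members more genes passed against 3′. Of 523 genes tested, 21 passed for standard 5′ (4.02%), 11 higher (2.1%) and 10 lower (1.91%). For modified 5′ 18 passed (3.44%), 11 higher (2.1%) and 7 lower (1.34%), while none passed between the 5′ protocols (34 at an unadjusted p under 0.05). The same 13 genes passed in both, which is no independent support since the 3′ libraries are shared. In the stricter set, 21 of 489 passed for standard 5′ (4.29%), 9 higher (1.84%) and 12 lower (2.45%), and 22 for modified 5′ (4.5%), 14 higher (2.86%) and 8 lower (1.64%). Anxa2, annexin A2, stood at 212 and 163 CPM in 3′, 1101 and 1265 in standard 5′ and 1068 and 1200 in modified 5′ (log2 differences 2.63 ± 0.46 and 2.51 ± 0.46). Malat1, a nuclear noncoding RNA, was lower in 5′: 12316 and 8941 CPM against 4268 and 2767 and against 4671 and 4115 (-1.86 ± 0.32 and -1.46 ± 0.30). Neither 5′ protocol overlapped with 3′ for these 2 genes.

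Genes of monocyte function were among the 13. Fn1 stood at 991 and 1070 CPM in 3′, 138 and 257 in standard 5′ and 133 and 490 in modified 5′ (-2.25 ± 0.48 and -1.65 ± 0.43), and Apoc2, an apolipoprotein on the nonclassical list, at 70.8 and 18.1, 1101 and 336, and 400 and 441 CPM (3.81 ± 0.96 and 3.50 ± 0.96). Fn1, on the classical list, was thus lower and Apoc2 higher in 5′, without overlap. The lowest of these values rest on very few counts. Fn1 in replicate 1 of standard and modified 5′, and Apoc2 in replicates 1 and 2 of 3′, lay below the level of 3 counts. These 2 genes do not stand for their lists. With all members no gene of either list passed. Of 15 classical genes tested, 3 were higher in standard 5′ (median log2 difference -0.51) and 4 in modified 5′ (-0.50). Of 13 nonclassical genes tested, 4 were higher in standard 5′ (-0.19) and 10 in modified 5′ (0.70). Cd74, the MHC class II invariant chain, was higher in 5′ (1.46 ± 0.33 and 1.65 ± 0.33). The part of the 30 members rich in MHC class II counts in that difference was not tested. Others were Cox4i1, Atp5g3 and Gnai2 (higher) and Neat1, Gvin1 and Slfn5 (lower). Cybb, the oxidase subunit gp91, was lower in standard 5′ only by the test against 3′ (-1.72 ± 0.45), which does not show that the 5′ protocols differ.

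**Figure D5:**
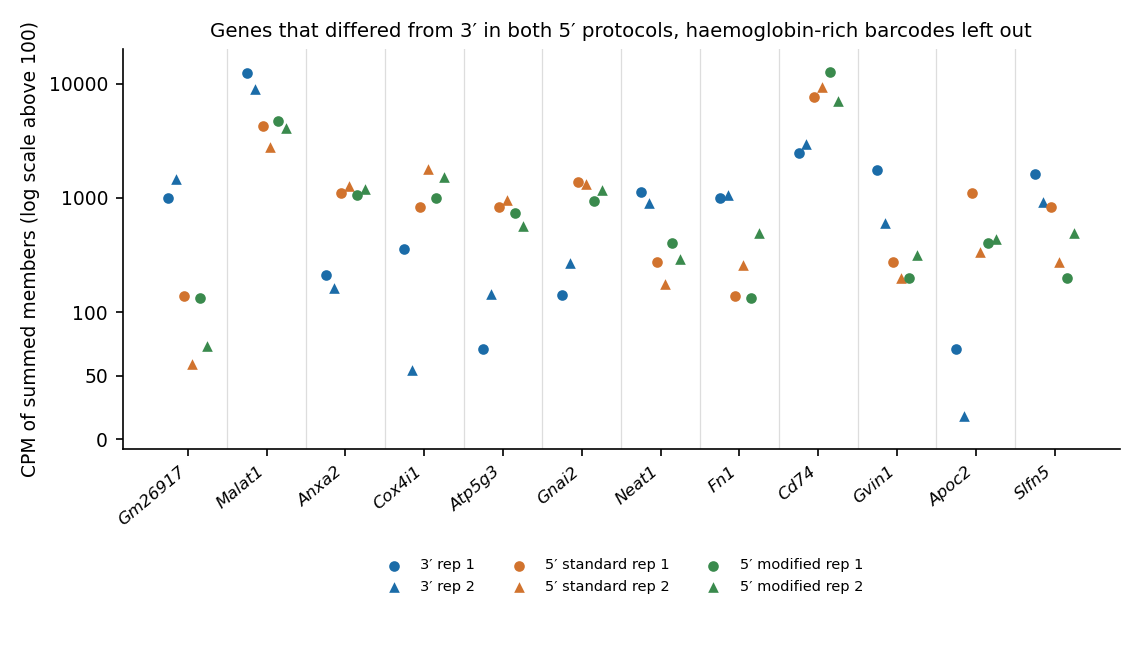
CPM of the summed members (y axis, log scale above 100) in each library for 12 of the 13 genes that passed against 3′ in both 5′ protocols, haemoglobin-rich members left out. For each gene both 3′ libraries lie on one side of all 4 libraries of the 5′ protocols, as for Anxa2 with 212 and 163 CPM in 3′ and 1068 or more in 5′.

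The count of protocol genes rested on single libraries and on the replicate number. With all members and the replicate number as a block, 14 genes passed for standard 5′ minus 3′ and 4 for modified 5′ minus 3′. Without 3′ replicate 1 the counts were 27 and 15, and without 3′ replicate 2 they were 66 and 91. In such fits the spread comes from the groups that keep 2 libraries, and the lone library is assumed to vary like them. The fits without a 3′ library also tested more genes, 1179 and 1081 against 790, so their counts do not share a base. Leaving out either standard 5′ library or modified 5′ replicate 1 gave 0 and 0, and leaving out modified 5′ replicate 2 gave 1 and 0. For modified minus standard 5′, leaving out either 3′ library gave 1 gene and leaving out any other library 0.

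These protocol differences were not shown to be particular to monocytes. The other kept barcodes, here with haemoglobin-rich members among them, moved in the same direction for Gm26917, Malat1, Anxa2 and Cd74. In 3′, standard 5′ and modified 5′, Gm26917 stood there at 1701 and 2791, 66.9 and 79.4, and 101 and 85.4 CPM. Malat1 stood at 16965 and 11693, 4529 and 4131, and 5773 and 5101. Anxa2 stood at 11.5 and 26.5, 117 and 130, and 81.1 and 128. Cd74 stood at 7820 and 11250, 16162 and 23119, and 17832 and 20392. In a fit of members and all other kept barcodes together, the standard 5′ minus 3′ difference of Gm26917 departed in members by -0.10 ± 0.94 on the log2 scale, and that of modified 5′ minus 3′ by -0.04 ± 0.84 (edgeR adjusted p = 1). Without haemoglobin-rich members the difference between members and other barcodes was 0.09 ± 0.85 for Anxa2 and -0.08 ± 0.61 for Malat1 in standard 5′ minus 3′, all at adjusted p = 1; the errors leave room for differences of more than 1 log2 unit. Of 6469 genes tested, none passed for standard 5′ minus 3′ (158 at an unadjusted p under 0.05, DESeq2 0), and 1 each for modified 5′ minus 3′ and modified minus standard 5′ (0.0155% each), Cd24a and Car1. Without haemoglobin-rich members 2 of 6481 passed for standard 5′ minus 3′ (0.0309%), both higher (0.0309%), Car1 and Stmn1, none for modified 5′ minus 3′ (125 at an unadjusted p under 0.05) and 1 for modified minus standard 5′ (0.0154%), Car1.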

How the data were processed

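The authors deposited one matrix of raw counts per library, with genes by symbol against cell barcodes. They are whole numbers, not normalized. The build mm10 and the tool Seurat, without a role, are named per the submitters' processing notes; for the aligner, annotation, strand use, cell calling and treatment of molecular identifiers, the sources used here say nothing. No doublet caller was run, and doublets may remain among members. The members, gene lists and tests were chosen with earlier results of these data known.

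Counts were summed per library and class and tested with edgeR 4.0.16 (R 4.3.3; quasi-likelihood, TMM factors, filterByExpr, Benjamini-Hochberg at 0.05), with the library as a block in the split. Libraries held 723341 to 2627253 counts, and share intervals cover counting error only. Shares were compared by exact permutation over libraries. Libraries of the same replicate number deviated together (correlations 0.48, 0.57 and 0.31 over 790 genes), and their extraction text is shared. The main protocol fits did not model this pairing. A fit with the replicate number as a block was run with all members only, and is given where it moves a count. Protocol fits without haemoglobin-rich or Ifitm3-only members had no such block. DESeq2 1.42.0, other filters, thinned barcodes and left-out libraries were alternatives. The tests were run on simulated counts, where the comparison of members with other barcodes recovered few of the changed genes. A low count there thus does not show that protocol differences were shared. Between positive and negative members, the test called 7 of 196 unchanged genes (3.57%). For standard 5′ minus 3′ it called 7 of 631 (1.11%), and recovered 47.2% of changes of 2 log2 units and 91.7% of 3. The simulated spread was lower than that of the protocol fit. No pair of libraries agreed within sampling noise (lowest chi-square per degree of freedom 3.53).

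For each fit the named genes are up to 10 largest rises and falls among genes passing, averaging 200 CPM or more and the same direction in every library, or no overlap between protocols; with fewer than 5, the 5 smallest p; list members that passed; and the rule's genes. Hsp90aa1 and Gpx1, genes that passed only without the haemoglobin-rich or Ifitm3-only members, sparse list members and the relatives of named genes were named after their values were seen. Gene positions and types are from GENCODE M21 and promoters from RefSeq (GRCm38.p6). Values of a few genes are not reported here.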

Additional observations from a re-analysis of the deposited data

Results flagged for a closer look

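Cd24a and Car1 were picked out because their protocol difference in the members differed, by the test of the difference itself (edgeR, 6469 genes), from that in the other kept barcodes. For Cd24a, modified 5′ minus 3′ was -4.07 ± 0.91 log2 units lower in members (adjusted p = 0.046). Its counts in members were 58 in 3′ replicate 1, all in the 10 haemoglobin-rich barcodes, 13 in standard 5′ replicate 1, all in 2 such barcodes, and 1, 1, 1 and 2 in 3′ replicate 2, standard 5′ replicate 2 and modified 5′ replicates 1 and 2. Without haemoglobin-rich barcodes Cd24a did not pass.

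For Car1, modified minus standard 5′ was -11.5 ± 2.21 (adjusted p = 0.0012), a fitted value that depends on the prior count since both modified 5′ libraries had 0 counts in members. Of 51 counts in standard 5′ replicate 2, 41 lay in 1 of 2 members, and the 7 counts in standard 5′ replicate 1 lay in 1 haemoglobin-rich member. Car1 did not pass without the haemoglobin-rich and Ifitm3-only members.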

How the results depend on the processing

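All 19 genes kept their sign wherever they were tested. The number of genes tested differed between settings, for the split from 87 (thinned) to 11518 (no filter), so the counts below do not share a base. With no replicate block, 6 genes passed between positive and negative members, 13 fewer. Other counts were 6 (floor of 300 genes), 2 (marker sum of at least 5), 4 (thinned, rule applied again), 10 (without haemoglobin-rich), 31 and 0 (Ly6c2 or Ccr2 alone as the split), 50 (no filter) and 11 (DESeq2); leaving out single libraries gave 2 to 23. For standard 5′ minus 3′ and modified 5′ minus 3′ the counts were 0 and 0 (300 genes; stricter gates), 9 and 3 (marker sum), 12 and 12 (thinned), 21 and 18, and with Ifitm3-only members also left out 21 and 22, 4 and 3 (no filter), 4 and 4 (DESeq2), and 14 and 4 (replicate block), with single libraries out 0 to 66 and 0 to 91. Modified minus standard 5′ gave 1 when thinned or unfiltered, and 0 to 1 with single libraries out. Differences between members and other barcodes gave, for standard 5′ minus 3′, 2 (300 genes; without haemoglobin-rich), 3 (marker sum), 1 (replicate block) and 0 to 0 with single libraries out; for modified 5′ minus 3′, 0 in every setting except the DESeq2 size factors and the replicate block, and 0 to 0; for modified minus standard 5′, 3 (marker sum), 0 (thinned, DESeq2 or the stricter set) and 0 to 1. Ly6c2 by Ccr2 fell to 0.93 (300 genes), 0.94 (marker sum), 0.53, 1.07, 0.89 (stricter set), 1.08 (no replicate block) and 0.77 (no filter), none passing, and 0.88 to 1.29 with single libraries out. The monocyte share difference modified 5′ minus 3′ (-0.0242 points) turned to 0.117 (marker sum), 0.141 (without haemoglobin-rich), 0.0716 (stricter set) and 2.97 (of barcodes with a marker count), and ran from -0.462 to 0.413 with single libraries out. The other share differences with single libraries out ran from -0.0274 to 0.729, -0.813 to 0.0624, -0.929 to 21.1, -25.1 to -3.03 and -33.1 to -15.2 points. The replicate block changed no other call between protocols. The planned filtered test of Ccr2 could not be fitted. The causes were not tested.

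Depth limits most negative statements: a library summed to between 10387 and 55142 member counts, so that in the shallowest 3 counts make 289 CPM. The positive or negative members of a library sum to fewer counts, so 3 counts make a higher CPM there.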
